A study of Homo sapiens with 3 samples.

Results

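The genes described here are 44 genes listed by name as chaperones of the cytosol and mitochondria: heat shock proteins of the Hsp70, Hsp110, Hsp90, Hsp60, Hsp10 and small Hsp families, J-domain and BAG co-chaperones, co-chaperones of Hsp90, the heat shock factors HSF1 and HSF2, and subunits of the chaperonin TRiC and of prefoldin. All 44 were found among the 61193 genes to which the deposited transcripts could be assigned, and the choice used names and functions, not measured values. They were measured by RNA-seq in HEK293T, a human embryonic kidney cell line with a stably carried gene for the large T antigen of SV40. No treatment is named, and the cells grew for 24 h after seeding before total RNA was taken. The sample records name the molecule as genomic DNA, while their protocols and the study describe total RNA. The study describes 3 independent biological replicates of this 1 condition, so there is no control group and no test between conditions. Libraries came from a QuantSeq kit, which primes at the poly(A) tail and reads the 3′ end of each mRNA.

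Molecular chaperones bind unfolded or partly folded proteins and release them in cycles of ATP use. Hsp70 proteins hold short exposed stretches, with J-domain proteins delivering the client and stimulating the ATPase, and Hsp110 and BAG proteins exchanging the nucleotide. Hsp90 acts later, on kinases and receptors among others, and is served by its own co-chaperones. TRiC folds actin and tubulin inside a closed chamber, to which prefoldin hands clients, while Hsp60 and Hsp10 form a comparable chamber in the mitochondrial matrix. On heat or proteotoxic stress, HSF1 binds repeats of the unit GAA in alternating orientation, the heat shock element, and raises transcription of many of these genes.

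The libraries held 6262175 to 8521624 counts, of which genes of the mitochondrial genome took 5.70% to 25.8%, with the highest share in replicate 3. That library stands apart, and values without it are given where they differ. The nuclear counts of the 3 libraries were closer, from 5895199 to 6334631. A count of 0 allows up to 3 counts, or 0.352 to 0.479 CPM (counts per 1000000 counts of the library), for counting error only, since the reads carry no molecular identifiers. Levels that compare genes are in TPM, the count divided by transcript length and scaled so that each library sums to 1000000. Of 9 genes listed for an embryonic kidney line, 5 reached 1 TPM, led by CDH2 with 25.4 ± 4.43 TPM (SD, n = 3), while the keratin KRT18 and the neurofilament genes NEFL and NEFM were listed at 0. Genes of blood cells were listed at 0 (5 of 5), hepatocyte genes were at 3 counts or fewer in every replicate (4 of 4), and of 6 fibroblast genes COL1A1 had 24.8 ± 0.330 TPM, COL3A1 1.68 ± 0.935 TPM and COL1A2 was listed at 0.

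Promoter stretches that carry the longest matches to the heat shock element are given first. RefSeq windows of 300 bases on GRCh38.p14, from 250 bases before to 50 after a transcription start, were at hand for 39 of the 44 genes (54 windows). GAANNTTC or TTCNNGAA, each the same on both strands, occurred in 19 of the 54 windows (35.2%) and in 13.5% of all 35116 windows. The longer form with 3 alternating units, GAANNTTCNNGAA or its other strand TTCNNGAANNTTC, which contains the shorter one, occurred in 6 of 54 windows (11.1%) and in 0.49% of all windows. These 6 windows belonged to HSP90AA1, HSP90AB1, HSPA8, HSPD1, DNAJB6 and DNAJA1. The stretches below run 5′ to 3′ on the strand of the gene, with every match in capitals. The HSPA1B stretch has the short form and is shown because its counts differed most between replicates.
HSP90AA1, chr14:102087100-102087152, minus strand, from 108 to 56 bases upstream of the start: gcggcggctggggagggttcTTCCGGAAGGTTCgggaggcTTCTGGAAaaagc
HSP90AB1, chr6:44247758-44247810, plus strand, from 185 bases upstream: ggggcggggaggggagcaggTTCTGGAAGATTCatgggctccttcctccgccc
HSP90AB1, chr6:44247811-44247863, plus strand, from 132 bases upstream: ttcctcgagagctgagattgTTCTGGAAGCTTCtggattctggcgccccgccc
HSPA8, chr11:123062334-123062386, minus strand, from 250 bases upstream: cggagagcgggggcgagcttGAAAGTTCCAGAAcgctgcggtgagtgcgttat
HSPA8, chr11:123062159-123062211, minus strand, from 75 bases upstream: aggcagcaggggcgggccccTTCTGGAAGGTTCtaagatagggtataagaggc
HSPD1, chr2:197500048-197500090, minus strand, from 250 bases upstream: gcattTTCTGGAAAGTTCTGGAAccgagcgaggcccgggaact
DNAJB6, chr7:157336853-157336905, plus strand, from 151 bases upstream: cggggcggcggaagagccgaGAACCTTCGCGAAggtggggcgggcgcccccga
DNAJA1, chr9:33025260-33025289, plus strand, across the start: tgcggcgcgccgggcgGAACTTTCCAGAAc
HSPA1B, chr6:31827613-31827660, plus strand, from 125 bases upstream: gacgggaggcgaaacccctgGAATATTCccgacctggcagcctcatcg
The HSPD1 element lies between the starts of HSPD1 and HSPE1, which point away from each other across 539 bases. A match describes these letters only and is not evidence of binding.

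The study mapped i-motifs, structures that form when cytosines of 4 C-tracts pair, so the same windows were searched on both strands for 4 tracts of at least 3 Cs with loops of 0 to 7 bases. Such a sequence was found for 10 of the 39 genes, in 20.4% of their windows against 26.8% of all windows. Members in the upper quartile of expression with one included HSPA13, TCP1 and HSP90AA1. For HSP90AA1 it lies in another window, chr14:102139700-102139999, and not in the window of the stretch shown above. The stretches of HSPA13 and TCP1, each with its C-tracts (in capitals) on the strand opposite to the gene, are shown as examples.
HSPA13, chr21:14383171-14383202, plus strand: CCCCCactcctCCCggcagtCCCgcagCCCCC
TCP1, chr6:159789616-159789644, plus strand: CCCCaCCCgcttCCCggctgCCCCggCCC
Formation of the structure at these sites was not analysed here.

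Chaperone transcripts were abundant for some members and hardly counted for others of the same complex. Of the 44 genes, 26 had a mean of at least 1 TPM, the level taken as expressed, compared with 21.7% of all genes and 38.2% of protein-coding genes. Their median was 60.2 TPM, beside 10.5 TPM for expressed protein-coding genes. Of the 44 genes, 16 lay in the upper quartile of expressed genes, at 24.1 TPM or more, compared with 5.43% of all genes and 12.5% of protein-coding genes. The other expressed members were medium (8 genes) or low (2 genes). At the other end, 10 members had at most 3 counts in every replicate, compared with 50.9% of protein-coding genes, and 4 of these (HSPA1A, HSP90AB1, STUB1 and PFDN6) were listed at 0 throughout. Together the members held 0.669%, 0.721% and 0.330% of TPM in replicates 1, 2 and 3, and CDC37, DNAJA1 and CCT4 held 70.4% of the members' TPM. The plot of counts by gene and replicate shows this range.

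**Figure D1:**
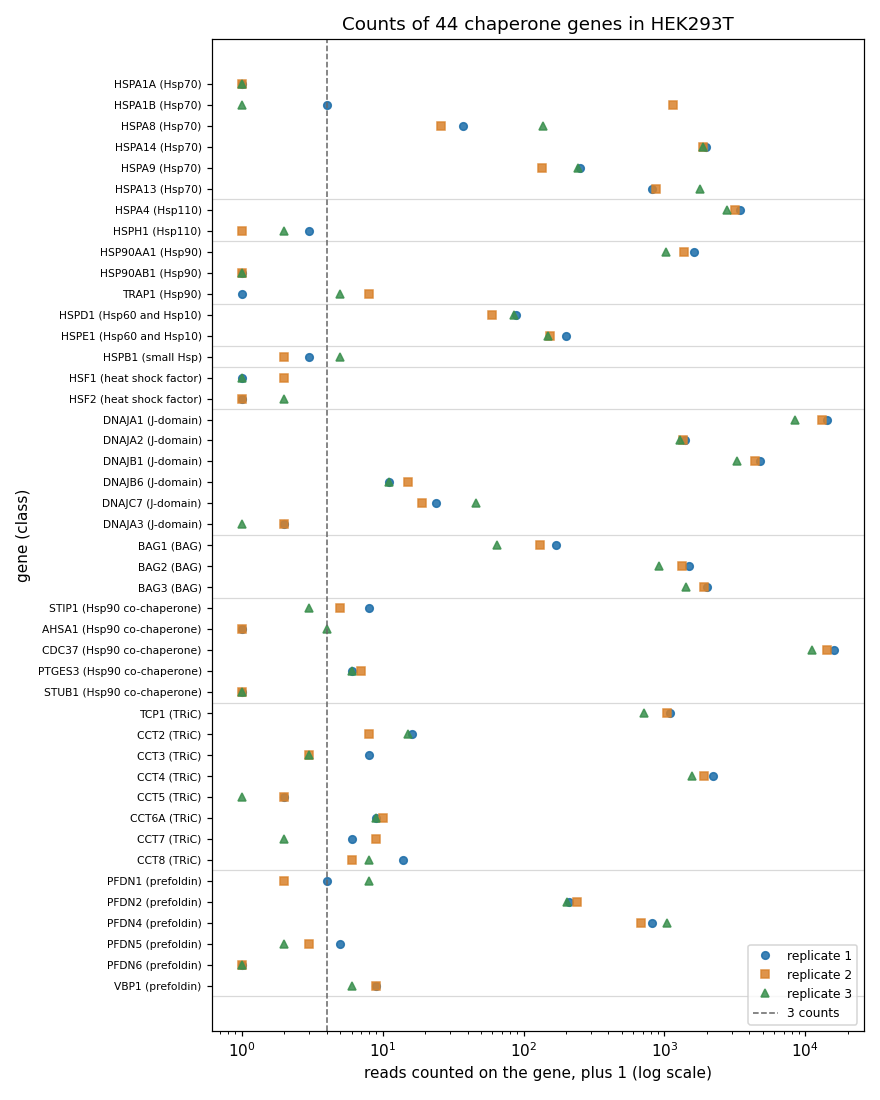
Reads counted on each of the 44 genes, plus 1, on a log axis, with 1 point for each of 3 HEK293T replicates, genes grouped by class and a dashed line at 3 counts. CDC37 and DNAJA1 reach at least 8396 counts in every replicate, and HSPA1B lies at 3, 1146 and 0 counts.

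The counting unit of the files was the transcript, and this bears on every level below. A read that falls on bases shared by several listed transcripts of a gene has no single owner, and how the authors' settings treated such reads is not given in the sources used here. Where QuantSeq reads mostly fall, in the final 300 bases of the canonical transcript, the sequence was wholly its own for 14 members, partly its own (10% or more) for 5 and under 10% its own for 25. More than 3 counts in every replicate were found for 12 of the 14, 3 of the 5 and 11 of the 25. Among protein-coding genes these shares were 56.3%, 46.2% and 26.2%, so the members followed the same order at higher levels. The mean count was at a median of 1297 for the 14 members and 4.33 for the 25. Exceptions to this order included CCT5 and HSPA1B with ends of their own but few or uneven counts, and DNAJB1, which had at least 3293 counts in each replicate on an end that other listed transcripts cover throughout. PFDN2 and HSPA9 also had at least 134 counts in each replicate with under 1% of the canonical end their own. The counts of HSPA9 all lie on another transcript, of which 2582 of 2725 bases are its own. For CCT5, genes of the opposite strand cover the same 300 bases. The end of BAG2 is covered in the same way, yet BAG2 had at least 909 counts in each replicate. A count near 0 for a member with a shared end is therefore no evidence that the gene was silent.

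**Figure D2:**
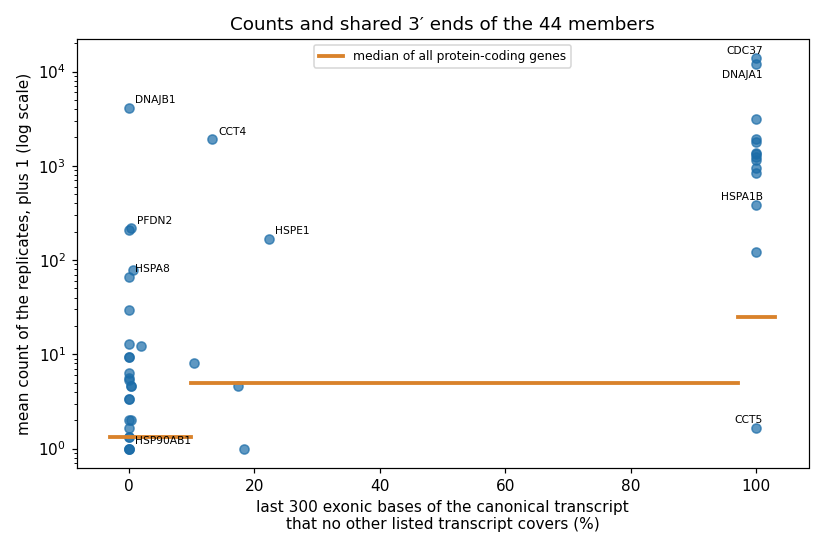
Mean count of the replicates, plus 1, on a log axis against the percentage of the canonical transcript's final 300 bases that no other listed transcript covers, with a point for each of the 44 genes. Orange lines give the median of all protein-coding genes with ends wholly, partly (10% or more) and under 10% their own, and of the 14 members at 100% all but CCT5 have a mean above 100 counts.

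The transcript that took the reads differed in kind between members. For 17 of the 40 members with counts it was the canonical transcript, and for 11 it was one annotated as a retained intron, an RNA in which an intron was not spliced out. For 25 of the 44 members the canonical transcript itself had 0 counts. HSPA9, for instance, had 100% of its counts on a retained-intron transcript of 2725 bases, HSPD1 had 90% on one of 860 bases, and DNAJC7 had 74.4% on one of 1762 bases. In contrast, the canonical transcript held 100% of HSPA4 and 99.4% of DNAJA1. Values of HSPA9, HSPD1 and DNAJC7 thus describe mainly these transcripts.

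Among Hsp70 and Hsp110 genes, HSPA14 and HSPA4 were highest and several better known members were barely counted. HSPA14 (ENSG00000187522, chromosome 10 from 14838306 to 14871741, plus strand), an Hsp70 bound to ribosomes, had 1971, 1867 and 1881 counts in replicates 1, 2 and 3, which gave 234 ± 64.6 TPM (SD, n = 3). HSPA4 (ENSG00000170606, chromosome 5 from 133052013 to 133106449, plus strand), an Hsp110 that exchanges nucleotide on Hsp70, had 3460, 3158 and 2789 counts and 140 ± 45.8 TPM. HSPA4 thus had more reads but a lower level per length, with 0.591 ± 0.0429 times the TPM of HSPA14 and 1.64 ± 0.143 times its CPM, in the same order in every replicate. HSPA13 (ENSG00000155304, chromosome 21 from 14371115 to 14383484, minus strand), an atypical Hsp70 described from microsomes although it was listed with the cytosolic genes, had 813, 869 and 1795 counts and 57.0 ± 11.4 TPM. Its highest count was in replicate 3, apart from the other two.

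The constitutive Hsp70 of the cytosol, HSPA8 (ENSG00000109971, chromosome 11 from 123057489 to 123063230, minus strand), had 36, 25 and 136 counts, almost all (98.0%) on a transcript of 1048 bases, while its canonical transcript had none. Its 11.2 ± 7.26 TPM (SD, n = 3) rests on 1 of 24 listed transcripts and cannot be read as the level of the gene. HSPA9, the mitochondrial Hsp70 also called mortalin, had 249, 134 and 244 counts. HSPH1, the other Hsp110 among the members described here, had 2, 0 and 1 counts, all on a retained-intron transcript. Both HSPA9 and HSPH1 have under 1% of their canonical end to themselves.

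The stress-inducible pair HSPA1A and HSPA1B, which encode nearly the same Hsp70, gave the most uneven values. HSPA1A (ENSG00000204389, chromosome 6 from 31815543 to 31817946, plus strand) was listed at 0 in every replicate. HSPA1B (ENSG00000204388, chromosome 6 from 31827738 to 31830254, plus strand) had 3, 1146 and 0 counts, which is 0.263, 119 and 0 TPM. HSPA1B was the only nuclear gene, of 2530 with 500 or more counts in at least 1 library, that had at most 3 in each of the others. Between them, HSPA1A and HSPA1B transcripts share 76.9% of the 31-base words of HSPA1A, but 0% of those in the last 300 bases, so reads from the 3′ end of HSPA1B can be told from HSPA1A. HSPA1B fell in the upper quartile of expressed genes through replicate 2 alone.

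These genes lie in the major histocompatibility complex, where hardly any gene was counted. Of the 45 other protein-coding genes within 250000 bases of HSPA1B, 43 were at 0 counts in every replicate and 0 had more than 3 in every replicate. They include LSM2, VARS1, CSNK2B and NELFE, which serve splicing, translation, phosphorylation and transcription in most cells and were named after their values were seen. The prefoldin gene PFDN6 (chromosome 6 from 33289302 to 33298401), listed at 0, lies in the same complex, and 0 of its 22 coding neighbours, RPS18 of the ribosome among them, passed 3 counts in every replicate. HSPA1A, HSPA1B and PFDN6 were the only members, of 37 with at least 5 coding neighbours, with no such neighbour, and the median share of counted neighbours was 42.9%. That HSPA1A and PFDN6 are listed at 0 therefore cannot be set against other genes, and what distinguishes replicate 2 at HSPA1B was not tested.

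Of the Hsp90 genes, HSP90AA1 was well counted and HSP90AB1 was not counted at all. HSP90AA1 (ENSG00000080824, chromosome 14 from 102080742 to 102139699, minus strand), the inducible cytosolic form, had 1630, 1385 and 1027 counts and 87.6 ± 35.3 TPM (SD, n = 3), with 99.7% of counts on its canonical transcript. HSP90AB1 (ENSG00000096384, chromosome 6 from 44246166 to 44253888, plus strand), the constitutive form, was listed at 0 on all 4 of its transcripts, and 0% of its canonical end is its own. Set against 3 counts in each library, HSP90AA1 was at least 342-fold to 543-fold higher in counts, but this bound compares what could be assigned, not the mRNAs. TRAP1, the Hsp90 of mitochondria, had 0, 7 and 4 counts on non-canonical transcripts. The canonical transcripts of HSP90AA1 and HSP90AB1 share 0% of their 31-base words, so reads of one would not be taken for the other.

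The highest level of all members belonged to CDC37, the co-chaperone that brings protein kinases to Hsp90. CDC37 (ENSG00000105401, chromosome 19 from 10391133 to 10420121, minus strand) had 15955, 14151 and 11234 counts and 2173, 2281 and 1041 TPM, a mean of 1832 ± 687 (SD, n = 3). Its level per length was 21.2 ± 1.15 times that of HSP90AA1 and its CPM was 10.3 ± 0.581 times higher, with little spread between replicates. The other Hsp90 co-chaperones were at the limit of counting. STIP1, which links Hsp70 to Hsp90, had 7, 4 and 2 counts, PTGES3, also called p23, had 5, 6 and 5, and the Hsp90 activator AHSA1 had 0, 0 and 3. The ubiquitin ligase STUB1, which marks clients of both chaperones for degradation, was listed at 0. The ends of STIP1, PTGES3 and AHSA1 are 0% their own, and that of STUB1 18.3%, whereas the end of CDC37 is wholly its own.

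J-domain genes included the second highest member and ranged from 14286 counts down to 0. DNAJA1 (ENSG00000086061, chromosome 9 from 33025273 to 33039907, plus strand), a main partner of cytosolic Hsp70, had 14286, 13160 and 8396 counts and 1388, 1503 and 561 TPM. DNAJB1 (ENSG00000132002, chromosome 19 from 14514769 to 14560391, minus strand), the stress-inducible partner, had 4761, 4396 and 3293 counts and 404 ± 157 TPM (SD, n = 3). DNAJA2, a paralog of DNAJA1, had 1400, 1363 and 1285 counts and 94.9 ± 27.9 TPM. The TPM of DNAJA1 was 2.79 ± 0.25 times that of DNAJB1 and 11.7 ± 2.56 times that of DNAJA2, in this order in every replicate. DNAJC7 had 23, 18 and 45 counts, DNAJB6, which keeps polyglutamine proteins soluble, 10, 14 and 10, and the mitochondrial DNAJA3 1, 1 and 0, each with at most 2.00% of its canonical end to itself.

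The BAG genes were all expressed. BAG3 (ENSG00000151929, chromosome 10 from 119651380 to 119677819, plus strand), a stress-induced co-chaperone in selective autophagy, had 1994, 1917 and 1429 counts and 150 ± 58.6 TPM (SD, n = 3). BAG2, which restrains STUB1, had 1489, 1341 and 909 counts on its single long transcript and 40.8 ± 17.7 TPM. BAG1 had 170, 130 and 64 counts and 13.2 ± 8.82 TPM. BAG3 was 3.74 ± 0.304 times as high as BAG2 per length and 1.45 ± 0.117 times in CPM, with no overlap between the TPM values of the 2 genes.

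Genes of the mitochondrial chaperonin were counted moderately. HSPE1, the Hsp10 lid (ENSG00000115541, chromosome 2 from 197500140 to 197503449, plus strand), had 198, 154 and 149 counts and 63.5 ± 20.5 TPM (SD, n = 3). HSPD1, the Hsp60 barrel (ENSG00000144381, chromosome 2 from 197486584 to 197516737, minus strand), had 87, 59 and 84 counts and 18.3 ± 3.84 TPM. HSPE1 was above HSPD1 in every replicate, by 3.42 ± 0.651 times in TPM and 2.22 ± 0.421 times in CPM. With the counts of pseudogenes added to each gene the TPM ratio was 13.1 ± 1.93. Of the canonical ends, 22.3% of HSPE1 and 0.667% of HSPD1 are their own, so the ratio sets parts of 2 genes against each other. The small heat shock protein gene HSPB1 had 2, 1 and 4 counts. The heat shock factors were at the floor, HSF1 with 0, 1 and 0 counts and HSF2 with 0, 0 and 1, and no level can be given for either at this depth.

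The 8 subunits of TRiC occur in equal number in the complex, but their genes were counted very unequally. CCT4 (ENSG00000115484, chromosome 2 from 61868085 to 61888671, minus strand) had 2219, 1917 and 1571 counts and 1052 ± 386 TPM (SD, n = 3), all of it on a transcript of 388 bases without a defined coding sequence, while the canonical transcript had 0 counts. TCP1 (ENSG00000120438, chromosome 6 from 159778498 to 159789703, minus strand), the first subunit described, had 1088, 1049 and 717 counts and 89.7 ± 38.2 TPM on its canonical transcript of 2352 bases. The ratio of CCT4 to TCP1 was 12.03 ± 1.12 in TPM and 2.02 ± 0.183 in CPM, and the division by length makes up the difference. The other 6 subunits had from 0 to 15 counts in any replicate. They lay at 4.49 TPM (CCT2), 3.08 (CCT8), 2.48 (CCT6A), 2.10 (CCT7), 0.523 (CCT3) and 0.283 (CCT5), values that rest on too few counts to be ordered. Apart from CCT5, at most 0.333% of their canonical ends is their own.

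Prefoldin showed the same split. PFDN4 (ENSG00000101132, chromosome 20 from 54208087 to 54228052, plus strand) had 817, 676 and 1036 counts and 139 ± 10.96 TPM (SD, n = 3), and PFDN2 had 208, 240 and 202 counts and 77.3 ± 27.0 TPM. PFDN4 was above PFDN2 in every replicate, by 1.93 ± 0.561 times in TPM. VBP1 had 8, 8 and 5 counts, PFDN1 3, 1 and 7, and PFDN5 4, 2 and 1. In PFDN5, 100% of the 31-base words of the canonical end also occur in transcripts of other genes, the highest share among the members. Of the 44 genes, 6 had any such word, with 40.7% for HSPB1 and 27.8% for HSPE1 as the next highest.

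Ordered by mean TPM, few neighbours differed beyond their spread. Of 43 pairs of neighbours, 3 kept their order in every replicate with ranges that did not overlap, namely CCT4 above DNAJB1, PFDN4 above DNAJA2, and HSPA8 above DNAJC7. CDC37, DNAJA1 and CCT4 thus formed a leading group that lay above every other member in each replicate. The order of DNAJA1 and CCT4 held in 2 of 3 replicates. Without division by length, CDC37 and DNAJA1 stayed first and second, while CCT4 moved to rank 5 and PFDN4 from rank 8 to 13.

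**Figure D3:**
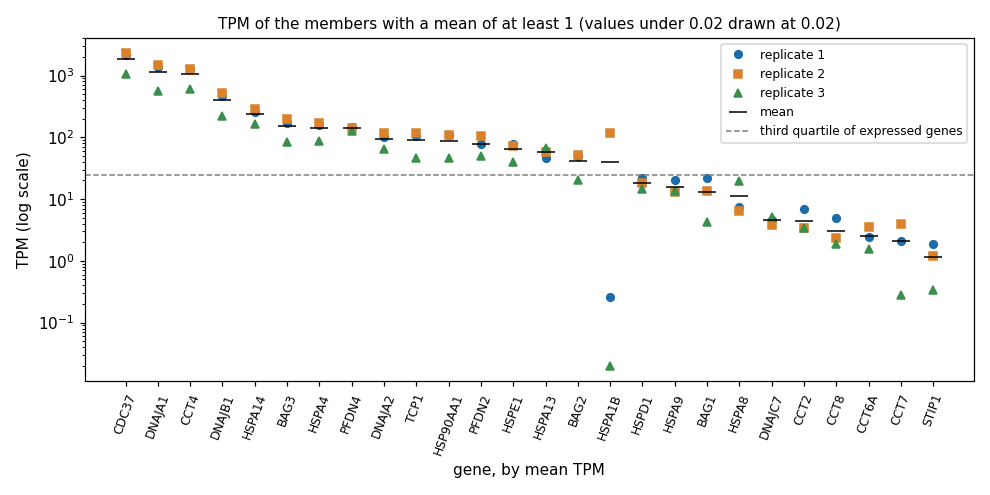
TPM on a log axis of the 26 genes with a mean of at least 1 TPM, with points for the 3 HEK293T replicates, a black bar for the mean and a dashed line at 24.1 TPM, the third quartile of expressed genes. Replicate 3 lies lowest for most of the leading genes, and the values of HSPA1B are spread from 0 to 119 TPM.

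Pseudogenes named after members, most of them copies of the mRNA inserted elsewhere in the genome, took reads as well. There were 102 of them for 20 members, 99 of them processed, and 18 had more than 3 counts in every replicate. The search took symbols made of a member's symbol, P and a number, so copies named otherwise were not looked for. It matched none for HSP90AA1 or HSP90AB1. HSPE1P2 had 421, 348 and 318 counts, more than HSPE1 itself in each replicate, and all 26 pseudogenes of HSPE1 summed to 444 ± 58.3 counts (SD, n = 3) beside a mean of 167 for the gene. HSPB1P1 had 81, 85 and 173 counts beside 2, 1 and 4 for HSPB1. CCT8P1 had 61, 71 and 80 counts beside 13, 5 and 7 for CCT8. For 8 of the 20 members the pseudogenes summed to more counts than the gene. The 18 counted pseudogenes had 31.1% of their 31-base words in common with the member at the median, compared with 0.0432% for the 40 without counts. Whether the reads came from the member or from its copy was not tested.

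**Figure D4:**
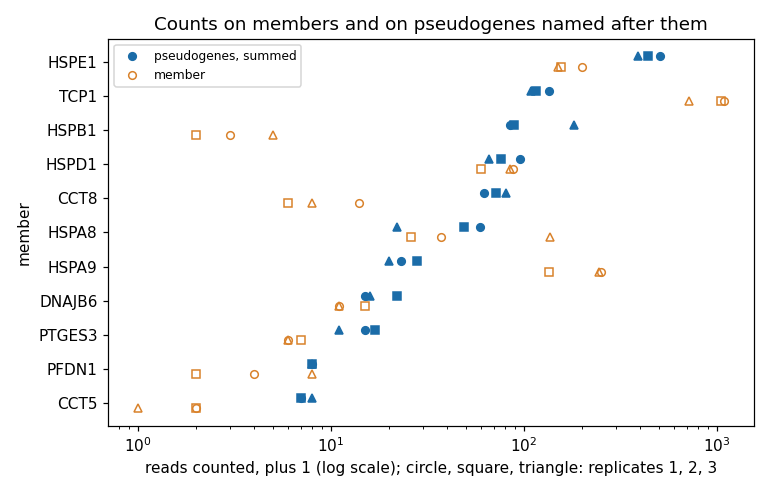
Reads counted, plus 1, on a log axis for 11 members (open symbols) and for the sum of the pseudogenes named after each (filled symbols), with circles, squares and triangles for replicates 1, 2 and 3 of HEK293T. For HSPE1, HSPB1 and CCT8 every pseudogene value lies above every value of the gene.

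Between replicates, most counted chaperone genes differed by more than counting noise, and the difference lay mainly in replicate 3. A chi-square test of the counts of each gene against the nuclear library totals compares these 3 libraries, not conditions. At a Benjamini-Hochberg adjusted p threshold of 0.05, 19 of 21 members with at least 50 counts were called, compared with 59.1% of 9265 nuclear genes. The share called depends on the counts, which were not matched between members and genes. With no count filter, 17 of 40 members and 23.7% of genes were called. At 100 counts or more, 18 of 20 members and 64.4% of genes were called. Of the 21 members, 14 were called and lower in replicate 3 than in the other replicates pooled, compared with 19.7% of the 9265 genes. They include HSPA1B, with 3, 1146 and 0 counts, through replicate 2 alone. Another 5 of the 21 were called and higher, compared with 39.3% of the 9265 genes. The median log2 difference of all genes depended on the scaling, at 0.17 with nuclear totals, 0.03 with TMM factors and -0.14 with all counts as totals. The members stayed mostly lower, with 15 of the 21 called and lower under TMM or DESeq2 factors and 16 of the 21 with all counts. Of the 9265 genes, 28.5% were called lower and 28.9% higher under TMM. With all counts these shares were 39.1% and 19.5%. The median ratio of replicate 3 to the others was 0.817 for the 21 members and 1.13 for all genes tested. With replicates 1 and 2 alone, 4 of 20 members were called (HSPA1B, HSPA9, HSPA13 and CDC37), compared with 16.3% of genes.

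The members that were lower in replicate 3 included inducible and constitutive genes of the cytosol. BAG1 had a ratio of 0.414 (exact 95% interval 0.311 to 0.544, for counting error only). DNAJA1 followed with 0.593 (0.579 to 0.608), BAG2 with 0.623 (0.577 to 0.672), TCP1 with 0.651 (0.597 to 0.708) and HSP90AA1 with 0.661 (0.615 to 0.709). These 5 genes, DNAJB1 (0.697), BAG3 (0.709), CDC37 (0.724) and CCT4 (0.737) all lay below the median of all genes tested. PFDN2 was called, but its ratio of 0.874 had an interval from 0.737 to 1.03. HSPA8 with 4.32 (3.17 to 5.95), DNAJC7 with 2.13 (1.36 to 3.33), HSPA13 with 2.07 (1.94 to 2.21), PFDN4 with 1.35 (1.24 to 1.46) and HSPA9 with 1.24 (1.05 to 1.45) were higher. With all counts as the total, mitochondrial ones included, the ratio of HSPA9 turned to 0.993, and that of HSPD1, which was not called, from 1.12 to 0.897. HSPD1 also turned with DESeq2 size factors, to 0.992. The share of mitochondrial counts in replicate 3 moved with these differences. The fibroblast list had a summed TPM of 26.1, 26.1 and 28.1, from 774, 664 and 1234 counts. The summed TPM of the members was 6691, 7209 and 3298, so the fibroblast list rose relative to them in replicate 3. COL1A1 and COL3A1, the 2 of its 6 genes that were tested, were both called higher against nuclear totals, as were 39.3% of genes. Their median log2 difference was 1.27. The part of the mitochondrial share or of the fibroblast genes in the differences was not tested.

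**Figure D5:**
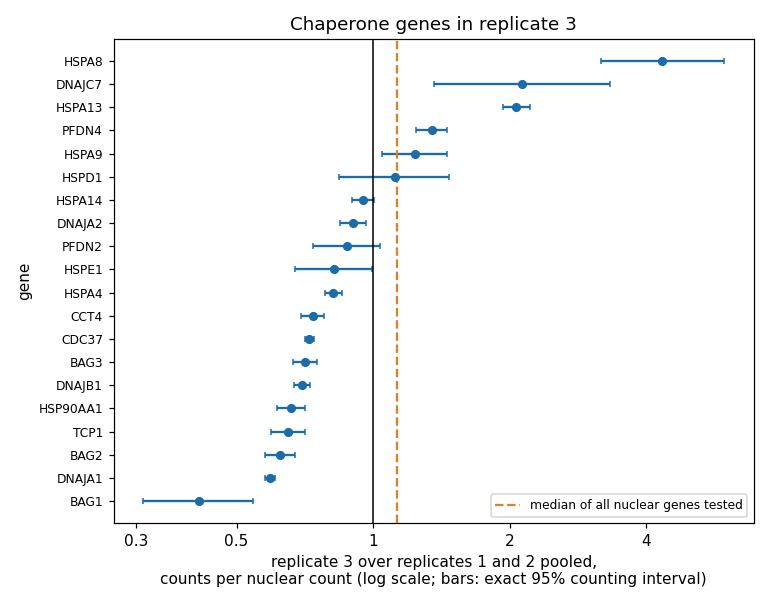
Ratio of counts per nuclear count in replicate 3 to replicates 1 and 2 pooled, on a log axis, for 20 members with at least 50 counts and at least 1 count in replicate 3, with exact 95% counting intervals. The dashed line is the median of all nuclear genes tested (1.13), and 14 of the 20 members lie below 1.

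As counted, members with a heat shock element did not move as 1 group in replicate 3. The 4 tested members with the 3-unit form had ratios of 0.593 (DNAJA1), 0.661 (HSP90AA1), 1.12 (HSPD1) and 4.32 (HSPA8). DNAJA1 and HSP90AA1 had 99.4% and 99.7% of their counts on the canonical transcript. HSPD1 and HSPA8 had 0 counts on theirs, so their ratios describe other transcripts, and whether the genes themselves moved apart cannot be told. The 10 tested members with at least the 2-unit form had a median ratio of 0.679, from 0 for HSPA1B to 4.32. The 9 with a window but no element had a median of 0.821. That median is the ratio of HSPE1, which also has the HSPD1 element upstream of its start, but outside its window. By compartment, 14 of 17 cytosolic members and 1 of 3 mitochondrial members had a ratio under 1, compared with 36.5% of all genes tested. The 14 include HSPA1B, whose ratio of 0 came from its counts in replicate 2 alone. With all counts as the total, the mitochondrial ratios were 0.993 (HSPA9), 0.897 (HSPD1) and 0.660 (HSPE1), all under 1, so the compartments cannot be told apart by direction.

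Other genes of the folding machinery gave a similar picture of high and missing members. Of 67 other cytosolic chaperones and co-chaperones, 41 reached 1 TPM, 23 lay in the upper quartile and 13 were listed at 0, among them CRYAB, BAG6 and HSPBP1. The median of the list was 5.91 TPM, compared with 3.79 TPM for the members and 0.195 TPM for protein-coding genes. The highest were SGTA with 519 ± 249 TPM, ST13 with 441 ± 105 TPM and NUDC with 382 ± 172 TPM (SD, n = 3), co-chaperones of Hsp70 and Hsp90. In replicate 3, 16 of 38 tested genes of this list were called lower and 10 higher, compared with 19.7% and 39.3% of genes. SGTA and NUDC were among the lower ones and ST13 was not called. The median log2 difference of the 38 was -0.00687, compared with -0.291 for the tested members. Of 24 other mitochondrial chaperones and proteases, 15 reached 1 TPM, led by GRPEL1, the nucleotide exchange factor of HSPA9, with 193 ± 69.1 TPM, and 5 were listed at 0, including PHB1 and PHB2. The stress-inducible HSPA6, which has its canonical end to itself, had 13, 20 and 20 counts and 1.57 ± 0.561 TPM. Unlike HSPA1B, it did not stand out in replicate 2.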

How the data were processed

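The authors deposited counts for 247541 Ensembl transcripts in each replicate, as whole reads per transcript without normalization, with the transcript length in bases. The authors also deposited TPM, which equals their counts per base of length, scaled so that a library sums to 1000000. It was recomputed from their counts and matched. Submitters' processing notes name Trimmomatic 0.38.0, HISAT2 2.2.1, featureCounts 2.2.1 and hg38. Settings for shared or multiply mapped reads and strand are not given in the sources used here.

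Transcripts were matched by identifier without version to GENCODE 44 on GRCh38 (223558 matched, 61193 genes) and summed per gene. The 161 second copies of pseudoautosomal transcripts were left unmatched. Genes of at least 50 counts were tested for homogeneity between replicates (scipy 1.17.1, Python 3.11.15), and size factors came from edgeR 4.0.16 (TMM) and DESeq2 1.42.0. The test was checked on simulated data. Own bases were counted per strand over the matched transcripts. Ratios were taken within each replicate. Promoters are RefSeq windows. All 44 members are named, and of other lists the 3 highest genes and those listed at 0, with further ones marked or given as markers. HSPA6 and genes near HSPA1B and PFDN6 were added after their values were seen, as were the neighbour window and the search for genes counted in 1 library. Members and lists were chosen with earlier results of these data known. The C-rich stretch of 1 further promoter is not reported here.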

Additional observations from a re-analysis of the deposited data

Results flagged for a closer look

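Transcripts that could not be assigned to a gene lay outside every comparison and still held reads. The 23983 unmatched transcripts together had 11260, 9873 and 14104 counts in replicates 1, 2 and 3, a mean of 0.161% of all counts. They carry no gene name here, so whether any of them is a transcript of a chaperone gene was not tested.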

How the results depend on the processing

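No paired analysis was possible because the libraries share 1 condition. Levels are limited by shared 3′ ends and, for 18 members with 3 counts or fewer in at least 1 replicate, by depth. Of the recomputed values, 90 stayed within 1 SD of the replicates (counts of genes within 1.5 times) and 22 moved. For many of the 90 a move was impossible. A mean with 1 of 3 replicates left out always lies within 1 SD of the mean of all 3. Class medians, ratios and TPM shares recomputed in that way therefore say nothing about stability. Counting protein-coding genes only could not change the expressed members, all of which are protein-coding. Promoter percentages, counted among the 22, have no replicate SD. Apart from the recomputed values, the ratio of HSPA4 to HSPA14 turned from 0.591 in TPM to 1.64 in CPM. The replicate 3 ratios of HSPA9 and HSPD1 also turned, with all counts as totals. With any mean TPM above 0 as expressed, 40 members were expressed. In CPM, without division by length, class medians were 40.9 (Hsp70), 221 (Hsp110), 17.0 (Hsp60 and Hsp10), 96.6 (J-domain), 178 (BAG), 0.568 (Hsp90 co-chaperones), 1.19 (TRiC) and 0.786 (prefoldin), against 21.8, 69.998, 40.9, 49.7, 40.8, 0.416, 2.95 and 1.04 TPM. The bound on the ratio of HSP90AA1 to HSP90AB1, set at 3 counts per library, was 449 in place of 346 on average, that of HSPE1 to HSPD1 2.22 in place of 3.42, and that of the highest to the lowest TRiC subunit 634 in place of 5382, which follows from the division by length. With pseudogenes added to their member, medians were 201 TPM (Hsp60 and Hsp10), 87.7 (small Hsp), 1.26 (Hsp90 co-chaperones) and 3.56 (prefoldin), and the ratios 13.1 (HSPE1 to HSPD1), 2324 (TRiC) and 191 in place of 271 (prefoldin). Heat shock elements were in 11.1% of windows with 3 units in place of 35.2%, and putative i-motifs in 42.6% with loops of up to 12 bases in place of 20.4%. With each replicate left out in turn, 25 to 29 members were expressed, 15 or 16 lay in the upper quartile, members held 0.499% to 0.695% of TPM, and 4 to 18 members differed between replicates, 4 of them without replicate 3, where the cause was not tested.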

Other observations

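Chaperones of the endoplasmic reticulum were led by HSPA5, the resident Hsp70 known as BiP, with 21428, 17334 and 19187 counts and 1030 ± 258 TPM (SD, n = 3). SDF2L1 followed with 819 ± 388 TPM and DNAJC1, a J-domain partner of HSPA5, with 243 ± 32.2 TPM. Of the 21 genes listed, 11 reached 1 TPM and 6 were listed at 0, among them HYOU1 and CALR, and the median was 1.33 TPM. The 20S proteasome, which degrades proteins that fail to fold, had 7 of 14 core genes at 1 TPM or more, compared with 38.2% of protein-coding genes, and a median of 0.995 TPM, compared with 0.195 TPM. PSMA3 was highest at 35.7 ± 2.10 TPM. PSMB3, PSMB4 and PSMB7 were listed at 0.

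Only 1 other nuclear gene, a long noncoding RNA (ENSG00000281383), had at least 100 counts in 1 library and no more than 3 in each of the others, with 245, 2 and 2 counts, beside 3, 1146 and 0 for HSPA1B. It was found in a search made after the values of HSPA1B were seen.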
